A study of Mus musculus with 12 samples.

Results

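The genes of 6 secreted or shed attractants of myeloid and lymphoid cells were followed in 4T1 cells, which derive from a mammary tumour of a BALB/c mouse and are used to model triple-negative disease. They are the CC chemokine genes Ccl2, Ccl7, Ccl5, Ccl9 and Ccl20, and Cx3cl1, the only CX3C chemokine gene of the mouse. They were taken by name as signals by which a tumour cell can recruit macrophages, and all 6 are among the 16283 genes counted. RNA was sequenced from 12 libraries in 6 groups of 2, made from 3 lines of the same cells. The lines carried a guide RNA against Cebpd named sgRNA1, a different Cebpd guide named sgRNA2, or a guide against Rosa26, a locus commonly used as a neutral target, and the last is called the control here. The genotype label of both Cebpd guide lines is Cebpd knockout, and each line was sampled after IFN-gamma at 20 ng/ml for 24 hours and after vehicle. Cebpd encodes C/EBPδ, a leucine zipper transcription factor of inflammatory and acute phase genes, and the design sets its loss against the intact gene with and without IFN-gamma. The sources used here do not say whether a line is 1 clone or a pool.

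Chemokines are small secreted proteins that bind G protein-coupled receptors on leukocytes and guide their migration. The ligands of CCR2, which include the products of Ccl2 and Ccl7, release monocytes from bone marrow and draw them into tumours, where they can become macrophages. Cx3cl1 encodes fractalkine, a membrane-anchored chemokine that the proteases ADAM10 and ADAM17 release from the cell, and its receptor CX3CR1 is found on monocytes, macrophages and microglia. Many chemokine genes are induced by NF-kB and by interferon-activated factors such as IRF1.

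The reference gave a promoter sequence, from 250 bases before to 50 bases after the start of the gene in RefSeq (GRCm38.p6), for 3 of the 6 genes, Ccl20, Cx3cl1 and Ccl9. Of the 6, Ccl20 is the gene furthest below control in vehicle with sgRNA2. Cx3cl1 is the gene furthest below control in IFN-gamma with either guide, and Ccl9 the gene without a count in any control library. The 3 promoters are shown so that letters matching known motifs can be read beside the values. Capitals mark matches, on either strand, to the kappa B consensus (Ccl20, first base 80 bases before the start, and Ccl9, 35 bases before it). They also mark the AP-1 motif written loosely as TGANTCA, with any middle base (Ccl9, TGAATCA, 53 bases before the start), and no 2 matches overlap. The RefSeq start of Cx3cl1 differs from the GENCODE start of the gene given further on. The promoters lie at chr1:83116516-83116815 on the plus strand for Ccl20, at chr8:94771930-94772229 on the plus strand for Cx3cl1, and at chr11:83578587-83578886 on the minus strand for Ccl9.
Ccl20: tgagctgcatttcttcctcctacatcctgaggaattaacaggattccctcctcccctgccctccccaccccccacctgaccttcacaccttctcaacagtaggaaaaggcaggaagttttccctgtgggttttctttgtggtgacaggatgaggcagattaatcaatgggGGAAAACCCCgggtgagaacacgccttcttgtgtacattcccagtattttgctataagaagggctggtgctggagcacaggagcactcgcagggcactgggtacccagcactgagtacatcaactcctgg
Cx3cl1: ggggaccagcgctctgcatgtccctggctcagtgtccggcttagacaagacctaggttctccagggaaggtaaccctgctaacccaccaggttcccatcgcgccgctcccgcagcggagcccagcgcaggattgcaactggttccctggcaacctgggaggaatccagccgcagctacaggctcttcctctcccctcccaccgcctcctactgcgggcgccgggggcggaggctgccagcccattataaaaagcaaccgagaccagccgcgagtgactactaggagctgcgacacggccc
Ccl9: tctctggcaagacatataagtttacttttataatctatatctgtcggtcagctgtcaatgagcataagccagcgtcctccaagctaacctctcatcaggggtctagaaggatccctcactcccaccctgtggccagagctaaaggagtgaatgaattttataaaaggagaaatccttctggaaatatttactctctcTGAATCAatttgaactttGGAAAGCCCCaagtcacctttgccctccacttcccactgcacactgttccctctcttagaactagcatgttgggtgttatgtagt
None of the 3 promoters held TTGCNNAA, the letters of a C/EBP site, or the core of an interferon-stimulated response element. Of 32544 promoters of the same length, 8.49% held the kappa B consensus, 7.79% the AP-1 motif, 10.8% the C/EBP motif and 3.45% the response element core. A match is a stretch of letters and no evidence of binding, and a missing match concerns only these 300 bases.

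Ccl2 and Ccl7 are neighbours on chromosome 11, both on the plus strand of GRCm38 (Ccl2, ENSMUSG00000035385.5, 82035571 to 82037453; Ccl7, ENSMUSG00000035373.2, 82045712 to 82047525), with starts 10141 bases apart. Ccl5 (ENSMUSG00000035042.2, 83525778 to 83530518) and Ccl9 (ENSMUSG00000019122.8, 83572919 to 83578636) lie farther along the same chromosome on the minus strand, with a gap of 42401 bases between them. Ccl20 (ENSMUSG00000026166.14) spans 83116766 to 83119167 on chromosome 1, and Cx3cl1 (ENSMUSG00000031778.13) spans 94772009 to 94782427 on chromosome 8, both on the plus strand. No exon of another gene annotated in GENCODE vM21 overlapped an exon of the 6 genes. How the deposited counting was annotated and stranded is not given, so the bearing of strand on their counts was not tested.

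Total counts per library were 16912710 to 24784371, and 13601 genes, all 6 chemokine genes among them, had enough counts to be tested. Epithelial marker genes were present in every library, 6 of 6 on the list, with a summed level of 2023 to 3150 CPM, the count scaled to the effective size of its library. Of 10 macrophage and monocyte markers 6 were in the table, with a summed level of 42.1 to 43.5 CPM in sgRNA1, 46.86 to 46.88 CPM in sgRNA2 and 45.5 to 45.7 CPM in control libraries after IFN-gamma. In vehicle the sum was 27.6 to 29.7 CPM with sgRNA1, 47.0 to 48.8 CPM with sgRNA2 and 15.9 to 17.3 CPM in control. Cd68 (3.77 to 35.3 CPM) and Cd14 (8.58 to 27.4 CPM) gave most of it, while Ptprc, the gene of the leukocyte antigen CD45, had 0 to 10 counts and Itgam 0 to 3 counts per library. Of 5 fibroblast markers 2 were in the table (Col1a1 and Pdgfra), with a summed level in vehicle of 18.8 to 20.6 CPM with sgRNA1 and 32.0 to 32.2 CPM with sgRNA2, against 14.1 to 15.2 CPM in control. After IFN-gamma it was 27.4 to 30.7 CPM with sgRNA1 and 22.3 to 26.4 CPM with sgRNA2, against 24.7 to 25.1 CPM in control. Of 4 neutrophil markers S100a8 was in the table, in vehicle at 1.01 to 1.63 CPM with sgRNA1 and 1.24 to 2.16 CPM with sgRNA2, against 0 to 0.157 CPM in control. After IFN-gamma S100a8 had 2.06 to 2.48 CPM with sgRNA1 and 3.57 to 4.67 CPM with sgRNA2, against 1.02 to 1.13 CPM in control. Endothelial markers (2 of 4) summed to 0 to 0.483 CPM, and 0 of 6 T and NK cell markers and 0 of 3 B cell markers were among the genes analysed here. The summed macrophage markers, the summed fibroblast markers and S100a8 are thus lowest in control in vehicle, where Ccl2, Ccl7 and Ccl5 are also lowest. Of 4 macrophage markers tested, 3 were higher and 1 lower with sgRNA2 in vehicle, and 2 higher with sgRNA1, beside 73.3% and 52.5% of all genes called. S100a8 is higher with each guide than in control after each treatment. The part of these markers in the results for the 6 genes was not tested. In bulk RNA a change in the number of cells that express a gene and a change of its RNA per cell cannot be told apart. Cebpd mRNA was present in every library at 7.13 to 53.5 CPM, in vehicle at 13.6 and 13.4 CPM with sgRNA1, 10.6 and 8.51 CPM with sgRNA2 and 9.09 and 7.13 CPM in control. After IFN-gamma it was 45.9 and 45.6 CPM with sgRNA1, 30.2 and 29.4 CPM with sgRNA2 and 53.5 and 49.1 CPM in control. Its mRNA thus was not lower in the guide lines in vehicle, it does not check the knockout label, and the groups are named as labelled. Exons of Cebpd overlap those of Spidr, and reads of the overlap cannot be assigned without strand, so its counts are uncertain.

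Ccl2 was higher with both Cebpd guides than in control, 7.16-fold (sgRNA1) and 5.55-fold (sgRNA2) in IFN-gamma and 7.33-fold (sgRNA1) and 2.04-fold (sgRNA2) in vehicle. After IFN-gamma its level was 259.8 and 253.5 CPM with sgRNA1 and 205.4 and 193.0 CPM with sgRNA2, against 35.6 and 36.0 CPM in control. In vehicle it was 29.8 and 28.5 CPM with sgRNA1 and 7.36 and 8.96 CPM with sgRNA2, against 4.03 and 3.93 CPM in control. No guide library overlapped the control libraries of the same treatment, and sgRNA1 cells in vehicle lay just below IFN-gamma-treated control cells. The log2 fold change over control was 2.84 ± 0.06 with sgRNA1 (edgeR adjusted p = 2.14e-16) and 2.47 ± 0.06 with sgRNA2 (adjusted p = 4.72e-15) in IFN-gamma. In vehicle it was 2.87 ± 0.10 with sgRNA1 (adjusted p = 6.12e-13) and 1.03 ± 0.13 with sgRNA2 (adjusted p = 7.13e-07). The ± values are standard errors computed from the fold change and its test. All neighbours in the order of the 6 group levels, from sgRNA1 in IFN-gamma down to control in vehicle, differed at an adjusted p of 0.000649 or less.

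**Figure D1:**
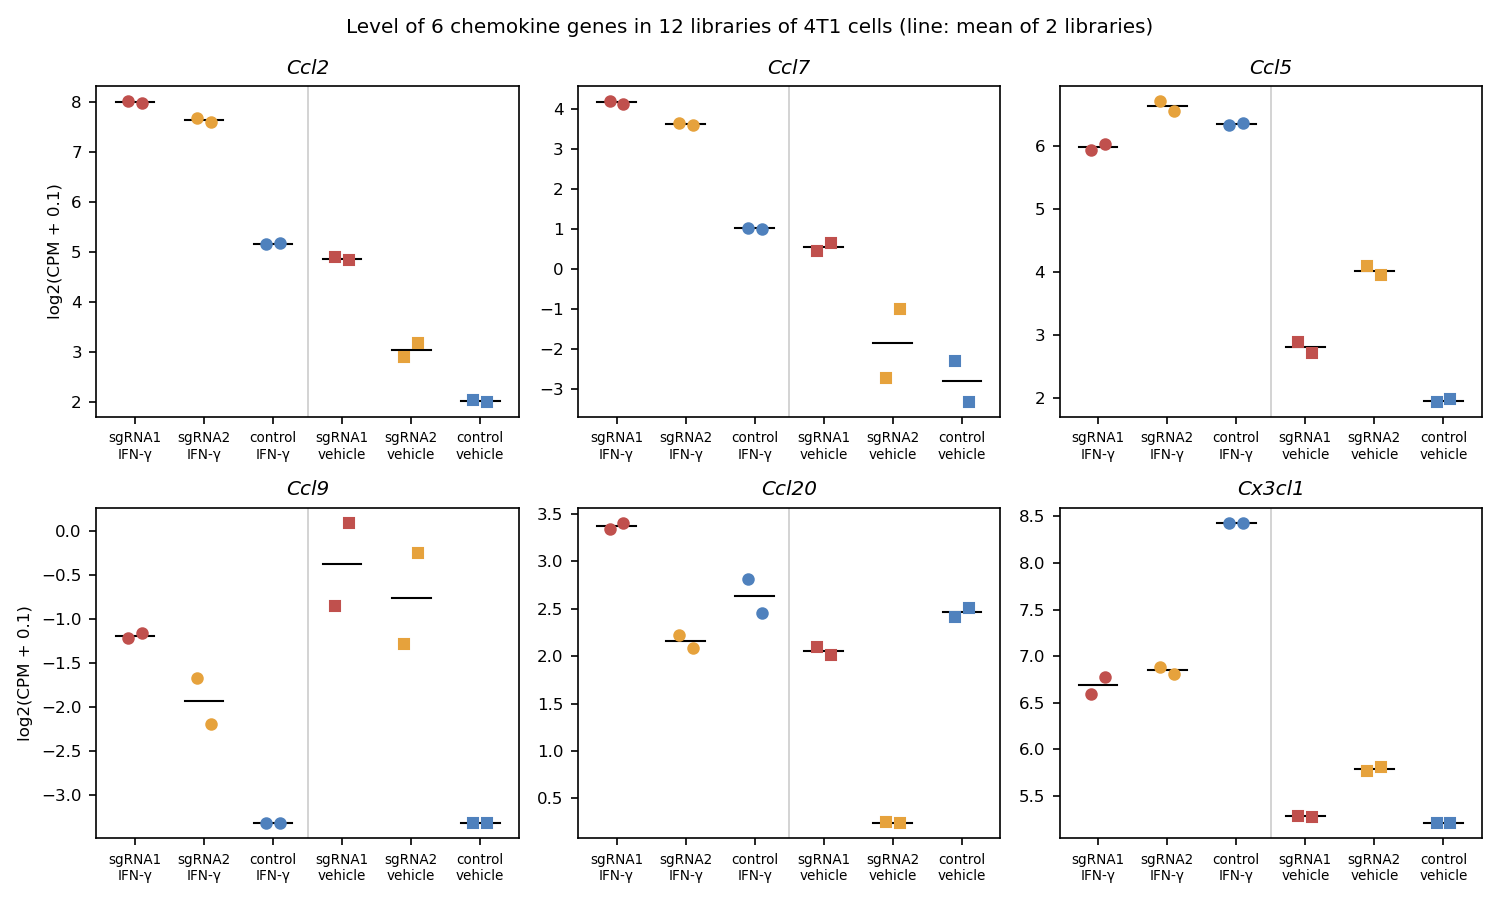
Levels of the 6 genes in each of the 12 libraries, as log2(CPM + 0.1), with circles for IFN-gamma, squares for vehicle and a line at the mean of the 2 libraries of a group. Ccl2 and Ccl7 follow the same order of groups, Ccl9 is at 0 in all 4 control libraries, and Cx3cl1 is highest in IFN-gamma-treated control cells.

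Ccl7, whose product also binds CCR2, followed the same order at lower levels. After IFN-gamma 387 and 347 reads were counted with sgRNA1 and 231 and 305 with sgRNA2, against 40 and 37 in control. In vehicle the counts were 25 and 24 with sgRNA1 and 1 and 7 with sgRNA2, against 2 and 0 in control. The groups did not overlap after IFN-gamma, and in vehicle the sgRNA1 libraries stood clear of control while 1 sgRNA2 library lay between the 2 control libraries. In IFN-gamma the log2 fold change was 3.20 ± 0.21 with sgRNA1 (edgeR adjusted p = 3.21e-10) and 2.66 ± 0.22 with sgRNA2 (adjusted p = 6.10e-09). In vehicle the ratio of summed, scaled counts was 25.8 with sgRNA1 (95% counting interval 6.78 to 219; adjusted p = 1.01e-05). With sgRNA2 it was 4.16 (counting interval 0.831 to 40.3; adjusted p = 0.0814), so no difference was detectable at this depth. The sgRNA2 value in vehicle rests on single libraries, with an adjusted p of 0.00834 without replicate 1 of sgRNA2 in vehicle, 0.985 without its replicate 2 and 0.0254 without replicate 1 of control in vehicle.

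Ccl5 encodes RANTES, a ligand of CCR1 that attracts monocytes and T cells. It rose with both guides in vehicle, and after IFN-gamma the guides moved it in opposite directions by small amounts. Vehicle libraries had 7.25 and 6.46 CPM with sgRNA1 and 16.9 and 15.3 CPM with sgRNA2, against 3.72 and 3.83 CPM in control. After IFN-gamma the level was 61.2 and 64.9 CPM with sgRNA1 and 104.4 and 93.1 CPM with sgRNA2, against 80.4 and 81.7 CPM in control. The control libraries thus lay below both guides in vehicle and between them after IFN-gamma, with no overlap. In vehicle the log2 fold change was 0.87 ± 0.14 with sgRNA1 (edgeR adjusted p = 5.51e-05) and 2.09 ± 0.12 with sgRNA2 (adjusted p = 2.43e-11). In IFN-gamma it was -0.36 ± 0.06 with sgRNA1 (adjusted p = 5.50e-05) and 0.28 ± 0.06 with sgRNA2 (adjusted p = 0.000532).

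Ccl9, a mouse gene whose product (MIP-1γ) signals through CCR1, had no count in any of the 4 control libraries and a few counts in every library of the Cebpd guides. In vehicle 9 and 16 reads were counted with sgRNA1 and 6 and 13 with sgRNA2, against 0 and 0 in control. After IFN-gamma the counts were 7 and 7 with sgRNA1 and 4 and 3 with sgRNA2, against 0 and 0 in control. Ccl9 had enough counts to be tested only through guide libraries in vehicle, where it is highest. Its adjusted p against control are therefore a description and no separate support for the difference. Against a floor of 3 counts per library, Ccl9 was in vehicle at least 4.54-fold higher with sgRNA1 (edgeR adjusted p = 0.001) and at least 3.36-fold higher with sgRNA2 (adjusted p = 0.00158). In IFN-gamma it was at least 2.26-fold higher with sgRNA1 (adjusted p = 0.0059). With sgRNA2 in IFN-gamma the counts were at or next to the floor, so no fold is given, and the adjusted p of 0.0402 was 0.0640 in a fit of the compared libraries only. It was 0.0512 to 0.125 without either control library, either sgRNA1 library or replicate 1 of sgRNA2 in IFN-gamma. IFN-gamma did not change Ccl9 past the threshold with sgRNA1 (adjusted p = 0.2) or sgRNA2 (adjusted p = 0.0838).

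Ccl20 encodes the ligand of CCR6, a receptor of lymphocytes and immature dendritic cells. In vehicle it had 4.18 and 3.92 CPM with sgRNA1 and 1.09 and 1.08 CPM with sgRNA2, against 5.22 and 5.61 CPM in control. After IFN-gamma it had 10.1 and 10.5 CPM with sgRNA1 and 4.56 and 4.16 CPM with sgRNA2, against 6.91 and 5.40 CPM in control. The sgRNA2 libraries were the lowest in each treatment, and the sgRNA1 libraries were below control in vehicle and above it after IFN-gamma. Against control, Ccl20 was lower with sgRNA2 in vehicle, by 2.31 ± 0.22 on the log2 scale (edgeR adjusted p = 2.01e-08). It was higher with sgRNA1 in IFN-gamma, by 0.74 ± 0.15 (adjusted p = 0.000322). With sgRNA1 in vehicle the log2 fold change was -0.42 ± 0.17 (adjusted p = 0.0524), and 0.0437 and 0.0429 without replicate 1 or replicate 2 of control in IFN-gamma. With sgRNA2 in IFN-gamma it was -0.50 ± 0.16 (adjusted p = 0.0126), a call that ended with DESeq2 (adjusted p = 0.0543), without replicate 1 of control in IFN-gamma (-0.31, adjusted p = 0.188) and without replicate 2 of sgRNA2 in IFN-gamma (adjusted p = 0.0858).

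After IFN-gamma Cx3cl1 was, of the 6 genes, the one furthest below control with each guide. It had 96.8 and 109.2 CPM with sgRNA1 and 118.1 and 112.3 CPM with sgRNA2, against 343.9 and 345.9 CPM in control. In vehicle it had 39.0 and 38.6 CPM with sgRNA1 and 54.5 and 55.8 CPM with sgRNA2, against 37.0 and 36.8 CPM in control. Guide libraries were thus far below control after IFN-gamma, and in vehicle those of sgRNA2 were above it. In IFN-gamma Cx3cl1 was lower than in control by 1.74 ± 0.05 on the log2 scale with sgRNA1 (edgeR adjusted p = 1.52e-14) and by 1.58 ± 0.05 with sgRNA2 (adjusted p = 1.30e-13). In vehicle it rose by 0.58 ± 0.06 with sgRNA2 (adjusted p = 1.28e-07), and with sgRNA1 the log2 fold change was 0.07 ± 0.06 (adjusted p = 0.374). With upper quartile scaling the last value was 0.18 (adjusted p = 0.0280).

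Counted over the set, 6 of the 6 genes passed the test with sgRNA1 in IFN-gamma, 4 higher and 2 lower, where 64.9% of all genes tested passed it, and likewise 6 with sgRNA2, 4 higher and 2 lower, where 61.8% passed. The genes lower were Ccl5 and Cx3cl1 with sgRNA1 and Ccl20 and Cx3cl1 with sgRNA2. In vehicle 4 passed with sgRNA1, all higher, beside 52.5% of all genes, and 5 with sgRNA2, 4 higher and 1 lower, beside 73.3%. Shares near these backgrounds say nothing particular about the set. Each of these counts includes Ccl9 as a higher gene. Ccl9 had enough counts to be tested only through guide libraries in vehicle, so its call adds no support. With Ccl9 at its bound, the median log2 fold change of the 6 was 0.96 with sgRNA1 and 0.22 with sgRNA2 in IFN-gamma, and 1.53 and 1.39 in vehicle in the same order of guides. Without Ccl9 the median was 0.74 with sgRNA1 and 0.28 with sgRNA2 in IFN-gamma, and 0.87 and 1.03 in vehicle. The median over all genes tested lay between -0.001553 and 0.06 in these comparisons.

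**Figure D2:**
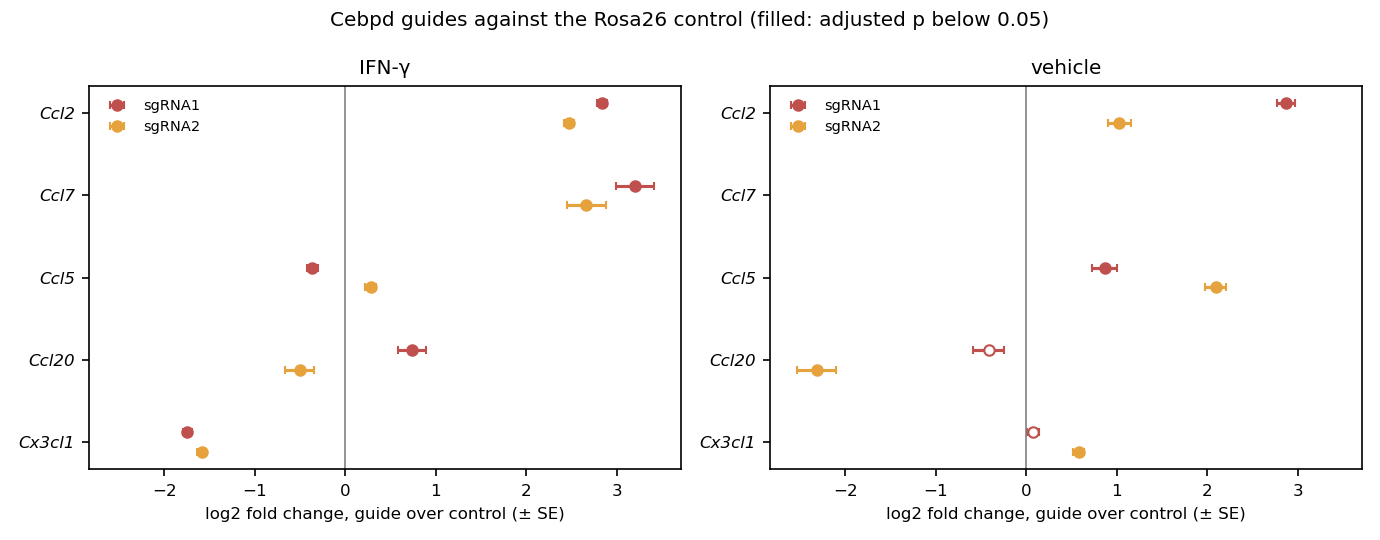
Log2 fold change of each guide over control (± SE) after IFN-gamma and in vehicle, filled where the adjusted p was below 0.05. Ccl9 is not drawn, nor is Ccl7 in vehicle, because control had 0 to 2 counts; Ccl2 lies right of 0 in each panel, and Cx3cl1 lies left of 0 in IFN-gamma only.

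Averaged over both guides as log values and set against control, Ccl2 was higher by 2.66 ± 0.05 in IFN-gamma (edgeR adjusted p = 3.39e-16) and 1.95 ± 0.10 in vehicle (adjusted p = 1.07e-11), and Cx3cl1 fell by 1.66 ± 0.04 in IFN-gamma (adjusted p = 2.10e-15). The same mean hid the opposite moves of Ccl5 and Ccl20 in IFN-gamma, at -0.04 ± 0.05 (adjusted p = 0.525) and 0.12 ± 0.14 (adjusted p = 0.469). By this mean 4 of the 6 genes, Ccl9 among them, passed in IFN-gamma beside 65.9% of all genes, and 6 in vehicle beside 67.7%. With the guides merged into 1 group per treatment, the vehicle differences of Ccl20 (-1.08, adjusted p = 0.151) and Cx3cl1 (0.35, adjusted p = 0.109) did not pass. The vehicle call of Ccl7 by this mean (adjusted p = 0.00103) ended without replicate 2 of sgRNA2 in vehicle (adjusted p = 0.105), and that of Ccl9 in IFN-gamma (adjusted p = 0.0110) without replicate 1 or 2 of control in IFN-gamma (0.0584 and 0.0520).

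IFN-gamma raised Ccl2, Ccl7, Ccl5 and Cx3cl1 in all 3 lines, and Ccl20 in the guide lines. The number of the 6 genes that rose was 5 with sgRNA1, where 61.4% of all genes passed in either direction, 5 with sgRNA2, where 59.7% passed, and 4 in control, where 70.4% passed. The log2 response of Ccl2 was 3.13 ± 0.06 with sgRNA1, 4.61 ± 0.07 with sgRNA2 and 3.17 ± 0.09 in control (edgeR adjusted p of 2.53e-15 or less in each). That of Ccl7 was 3.71 ± 0.23 with sgRNA1 and 5.77 ± 0.33 with sgRNA2, and in control the ratio of summed counts was 36.9 (95% counting interval 9.87 to 310). The Ccl7 response with sgRNA2 rests on 8 counts in vehicle, with a counting interval of 28.3 to 131 around a ratio of 56.1, and was 4.96 without replicate 1 and 7.76 without replicate 2 of sgRNA2 in vehicle. The response of Ccl5 was 3.19 ± 0.09 with sgRNA1, 2.61 ± 0.07 with sgRNA2 and 4.42 ± 0.10 in control. Cx3cl1 responded by 1.41 ± 0.06 with sgRNA1, 1.06 ± 0.06 with sgRNA2 and 3.22 ± 0.06 in control. For Ccl20 the values were 1.34 ± 0.16 with sgRNA1, 2.0 ± 0.22 with sgRNA2 and 0.19 ± 0.16 in control (adjusted p = 0.314), the last being -0.004065 without replicate 1 of control in IFN-gamma.

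**Figure D3:**
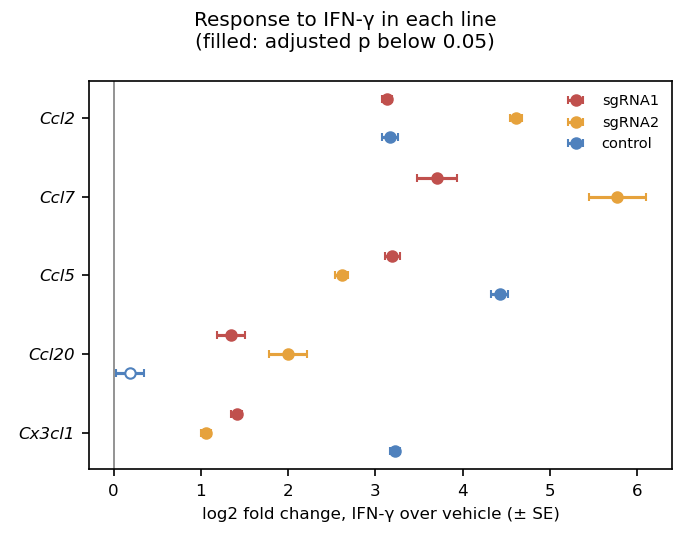
Log2 fold change of IFN-gamma over vehicle (± SE) in each line for 5 of the genes, filled where the adjusted p was below 0.05; Ccl9 is not drawn, nor is Ccl7 in control, which had 2 and 0 counts in vehicle. Control has the largest response for Ccl5 and Cx3cl1 and the smallest for Ccl20.

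Tested as a difference of responses, the response of Cx3cl1 was smaller than in control by 1.82 ± 0.08 on the log2 scale with sgRNA1 (-1.82, edgeR adjusted p = 8.81e-12) and by 2.16 ± 0.08 with sgRNA2 (-2.16, adjusted p = 1.25e-13). That of Ccl5 differed by -1.23 ± 0.15 with sgRNA1 (adjusted p = 2.52e-06) and -1.81 ± 0.14 with sgRNA2 (adjusted p = 1.69e-09). The response of Ccl20 was larger than in control, by 1.16 ± 0.23 with sgRNA1 (adjusted p = 0.000333) and 1.81 ± 0.28 with sgRNA2 (adjusted p = 1.48e-05). Ccl2 responded more than control with sgRNA2 (1.44 ± 0.15, adjusted p = 8.30e-08), and with sgRNA1 the difference was -0.03 ± 0.12 (adjusted p = 0.83) and changed sign under some settings, at 0.026 with the compared libraries only. In all 3 of the 6 genes passed with sgRNA1, beside 55.1% of all genes, and 4 with sgRNA2, beside 65.1%. For the mean of the guides the differences of Ccl2 (0.70), Ccl5 (-1.52) and Ccl20 (1.48) passed, but not with merged guides, where they were 0.44 (adjusted p = 0.653), -1.61 (adjusted p = 0.0529) and 1.33 (adjusted p = 0.218). That mean counted 4 genes beside 63.9% of all genes, and merged guides counted 1, Cx3cl1.

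The guide lines share a genotype label, and many of all genes tested differed between them. In IFN-gamma 5 of the 6 chemokine genes differed between sgRNA2 and sgRNA1, beside 47.9% of all genes, and in vehicle also 5, beside 62.3%. Differences between the guide lines were thus not particular to these genes. In vehicle sgRNA2 cells had less Ccl2 (-1.84 ± 0.09, edgeR adjusted p = 4.59e-12), Ccl7 (-2.60 ± 0.48, adjusted p = 0.000133) and Ccl20 (-1.90 ± 0.23, adjusted p = 8.73e-07) than sgRNA1 cells. The Ccl7 value was -4.57 without replicate 2 of sgRNA2 in vehicle and -1.78 without its replicate 1. They had more Ccl5 (1.23 ± 0.11, adjusted p = 1.75e-08) and Cx3cl1 (0.51 ± 0.06, adjusted p = 1.21e-06). The directions were the same in IFN-gamma, at -0.37 for Ccl2, -0.54 for Ccl7, -1.24 for Ccl20, 0.64 for Ccl5 and 0.16 for Cx3cl1. The Cx3cl1 difference in IFN-gamma did not pass without replicate 1 of sgRNA1 (0.076, adjusted p = 0.275) or replicate 1 of sgRNA2 (0.12, adjusted p = 0.148), nor that of Ccl7 without replicate 1 of sgRNA1, replicate 2 of sgRNA1 or replicate 2 of sgRNA2 (adjusted p = 0.0949, 0.0575 and 0.0616). The response to IFN-gamma itself differed between sgRNA2 and sgRNA1 for Ccl2 (1.48 ± 0.10, adjusted p = 4.47e-09), Ccl7 (2.06 ± 0.52, adjusted p = 0.00391), Ccl5 (-0.58 ± 0.13, adjusted p = 0.00106) and Cx3cl1 (-0.35 ± 0.08, adjusted p = 0.00198), 4 of 6 beside 42.8% of all genes. Without replicate 1 of sgRNA2 in vehicle the Ccl7 value was 1.22 (adjusted p = 0.0603), and without its replicate 2 it was 4.01.

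Divided by the length of the exons of protein-coding transcripts (813 bases for Ccl2, 532 for Ccl5, 1421 for Ccl20 and 3533 for Cx3cl1), levels can be set beside each other between genes, as CPM per kb. The summed level of the 6 genes after IFN-gamma was 492.8 ± 1.42 CPM per kb with sgRNA1 and 481.5 ± 27.6 with sgRNA2, against 300.8 ± 1.78 in control (SD, n = 2). In vehicle it was 64.5 ± 2.10 with sgRNA1 and 57.1 ± 0.0129 with sgRNA2, against 26.3 ± 0.128 in control. The guide libraries were above control in each treatment without overlap, and the genes that made up the sum also differed. Ccl2 made up 64.1% ± 1.30 of it with sgRNA1 and 50.9% ± 0.682 with sgRNA2 after IFN-gamma, against 14.7% ± 0.0281 in control. Cx3cl1 made up 5.92% ± 0.484 with sgRNA1 and 6.77% ± 0.147 with sgRNA2, against 32.5% ± 0.0588 in control, and Ccl5 24.1% ± 0.944 and 38.5% ± 0.921 with the guides in that order, against 50.6% ± 0.304 in control.

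In vehicle the guide lines differed in which gene led. Per length Ccl2 led with sgRNA1, at 55.6% ± 0.0564 of the sum, Ccl5 with sgRNA2, at 52.9% ± 3.58, and Cx3cl1 in control, at 39.7% ± 0.330. Ccl20 made up 4.42% ± 0.0528 with sgRNA1 and 1.33% ± 0.00976 with sgRNA2, against 14.5% ± 0.673 in control. Ccl7 and Ccl9 each stayed at or below 4.6% of the sum in every library. With lengths over all annotated transcripts, an alternative chosen after seeing the data, Cx3cl1 (41.7%) and Ccl5 (40.1%) change places as leader in IFN-gamma-treated control cells, while Ccl2 still leads with each guide, at 53.8% with sgRNA2. By the same lengths Cx3cl1 (20.8%) and Ccl5 (15.04%) change places with sgRNA1 in vehicle, and Ccl20 (18.4%) and Ccl2 (16.9%) in control in vehicle.

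**Figure D4:**
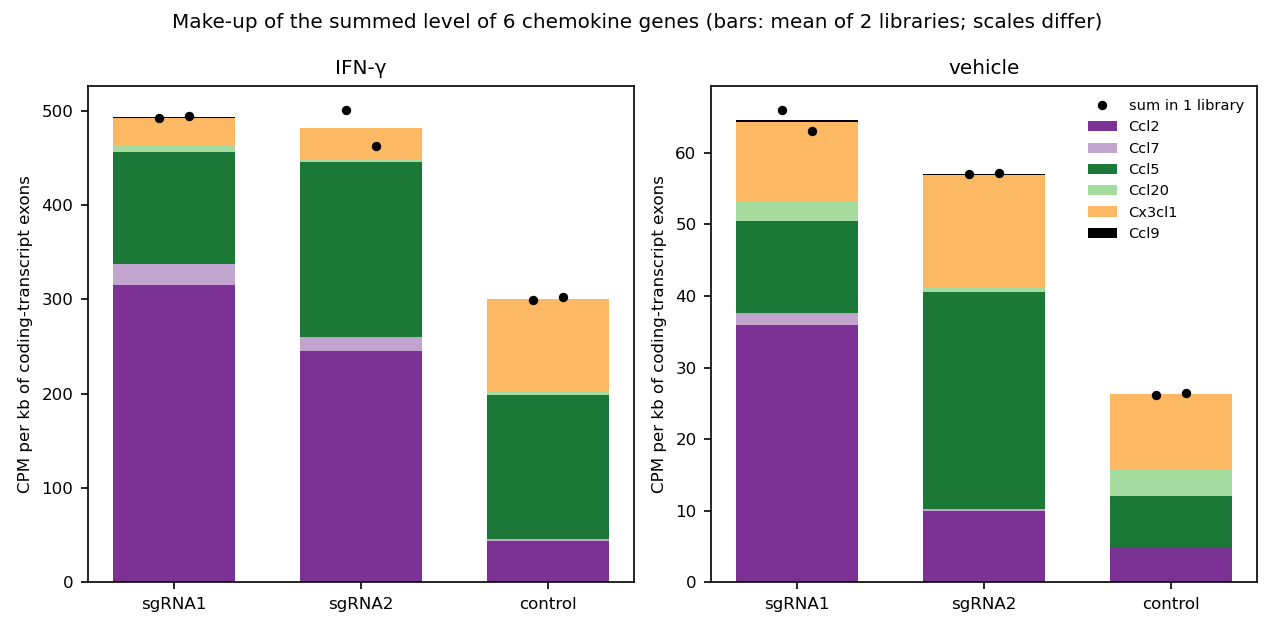
Stacked mean levels per length of the 6 genes in each line, in CPM per kb of coding-transcript exons, with points for the sum in each library; the vertical scales of the panels differ. After IFN-gamma the Ccl2 segment is the largest in the guide lines and Ccl5 and Cx3cl1 make up most of the bar in control.

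Across the 12 libraries the genes fell into no single pattern, as a description over libraries that share groups and lines. Ccl2 and Ccl7 varied together (Pearson r of log2 CPM 0.990, Spearman 0.979), and Ccl5 went most with Cx3cl1 (r = 0.857, Spearman 0.930) and with Ccl2 (r = 0.801). Ccl20 had r between 0.29 and 0.55 with Ccl2, Ccl7, Ccl5 and Cx3cl1, and Ccl9, which is at 0 in 4 libraries, between -0.42 and 0.23 with the other genes. Among the 11945 genes whose mean reached 1 CPM, those most like Ccl2 after Ccl7 were Ocln (0.971) and Serpina3h (0.965), a gene with near-identical copies that can share reads. Those most like Ccl7 after Ccl2 were Ocln (0.962) and Saa3 (0.956), and those most like Ccl5 were Oasl2, Xaf1 and Psmb9 (0.996 each). For Cx3cl1 they were Pnpla2 (0.990) and Jak1 (0.990), for Ccl20 Rad9a (0.980), Ap2m1 (0.979) and Zc3h10 (0.976), and for Ccl9 Pmp22 (0.933), Pdgfc (0.927) and Moxd1 (0.926).

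Neighbouring groups in the order of levels could not always be told apart. Ccl5 and Ccl2 separated all neighbours, and Cx3cl1 all but sgRNA1 and control in vehicle. For Ccl20, control in IFN-gamma and control in vehicle (edgeR adjusted p = 0.314), control in vehicle and sgRNA2 in IFN-gamma (0.105), and sgRNA2 in IFN-gamma and sgRNA1 in vehicle (0.647) did not separate. For Ccl7 the pairs that did not separate were control in IFN-gamma and sgRNA1 in vehicle (adjusted p = 0.133) and sgRNA2 and control in vehicle (0.0814). Ccl9 separated none of its first 3 neighbouring pairs, from sgRNA1 in vehicle down to sgRNA2 in IFN-gamma (adjusted p of 0.326 to 0.592).

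The other CC and XC chemokine genes were sparse, with 4 of a list of 19 in the table (Ccl4, Ccl6, Ccl17 and Ccl25) and 3 tested. Ccl4, a chemokine gene separated from Ccl9 by 83948 bases, had after IFN-gamma 23 and 25 counts with sgRNA1 and 10 and 9 with sgRNA2, against 0 and 0 in control, and passed the test with each guide (edgeR adjusted p = 5.16e-05 and 0.00204). In vehicle it had 1 and 5 counts with sgRNA1 and 4 and 2 with sgRNA2, against 0 and 1 in control, and did not pass (adjusted p = 0.157 and 0.132). Ccl4 had enough counts to be tested only through the guide libraries in IFN-gamma. Its adjusted p there are therefore a description and no separate support for the difference. Ccl6, separated from Ccl9 by 9246 bases, had 0 to 11 counts per library and was not tested. Ccl17, a ligand of CCR4 whose start is 38444 bases from that of Cx3cl1, passed with sgRNA2 in vehicle, with 8 and 10 counts against 1 and 2 in control (adjusted p = 0.0124). It did not pass in IFN-gamma, where it had 9 and 6 counts with sgRNA1 and 5 and 9 with sgRNA2, against 11 and 12 in control. Ccl25, a ligand of CCR9, was higher with sgRNA1 (0.94 ± 0.20, adjusted p = 0.000492) and sgRNA2 (0.74 ± 0.20, adjusted p = 0.00405) in IFN-gamma.

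Of 18 listed receptor and decoy genes 4 were in the table (Ccr7, Ccr10, Ackr3 and Ccrl2) and 3 were tested. In IFN-gamma 2 of the 3 were higher with each guide, beside 64.9% (sgRNA1) and 61.8% (sgRNA2) of all genes called in either direction, and with DESeq2 1 of the 3 passed with sgRNA2. Ccrl2, a non-signalling receptor of the chemoattractant chemerin, rose with sgRNA1 (0.62 ± 0.22, edgeR adjusted p = 0.0180) and sgRNA2 (0.58 ± 0.22, adjusted p = 0.0274) in IFN-gamma, and had 27 and 7 counts with sgRNA1 and 24 and 36 with sgRNA2, against 2 and 3 in control, in vehicle. Ackr3, a scavenging receptor of CXCL12, was higher than in control with sgRNA1 and sgRNA2, by 1.11 ± 0.06 and 0.44 ± 0.06 in IFN-gamma and by 0.44 ± 0.05 and 0.42 ± 0.05 in vehicle. Of the 4 measured genes of Cx3cl1 shedding, Adam10, Adam17 and the ADAM17 partners Rhbdf1 and Rhbdf2, all 4 were lower with each guide in IFN-gamma, as Cx3cl1 was, in comparisons where 64.9% (sgRNA1) and 61.8% (sgRNA2) of all genes passed. Their median log2 fold change was -0.69 with sgRNA1 and -0.63 with sgRNA2, while the median over all genes was -0.001553 and 0.03. Adam10 fell by 0.72 ± 0.05 with sgRNA1 (adjusted p = 7.01e-10) and 0.66 ± 0.05 with sgRNA2 (adjusted p = 2.65e-09), and Adam17 by 0.17 ± 0.05 (adjusted p = 0.00581) and 0.33 ± 0.05 (adjusted p = 1.79e-05). With upper quartile scaling 3 of the 4 passed with sgRNA1. In vehicle 3 were lower with sgRNA1 and 1, Rhbdf1, was higher with sgRNA2, beside 52.5% and 73.3% of all genes that passed. With upper quartile scaling these counts became 1 higher and 1 lower with sgRNA1 and 2 higher with sgRNA2.

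Genes of IFN-gamma signalling, a pathway that can induce chemokine genes, were mostly lower with the guides after IFN-gamma and higher in vehicle. Of 13, 11 were lower and 1 higher with sgRNA1 in IFN-gamma and 10 lower and 1 higher with sgRNA2, the higher gene in each case being Irf7 (0.26 and 0.39), with medians of -0.62 and -0.42. Of all genes 64.9% passed with sgRNA1 and 61.8% with sgRNA2 in either direction. The kinase gene Jak2 was lower than in control by 1.04 ± 0.05 with sgRNA1 (edgeR adjusted p = 5.55e-12) and 0.90 ± 0.05 with sgRNA2 (adjusted p = 5.23e-11). In vehicle 8 were higher and 3 lower with sgRNA1 and 11 higher and 1 lower with sgRNA2, with medians of 0.34 and 0.78, where 52.5% and 73.3% of all genes passed. Irf1 rose there by 1.00 ± 0.06 with sgRNA1 and 2.36 ± 0.06 with sgRNA2, and Socs1, a feedback inhibitor, fell by 0.66 ± 0.12 and 2.09 ± 0.15. With upper quartile scaling 1 was lower with sgRNA1 in vehicle in place of 3, and 2 were higher with sgRNA1 in IFN-gamma in place of 1.

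Of 15 NF-kB factors and inhibitors, 5 were higher and 5 lower with sgRNA1 and 2 higher (the kinase subunit genes Ikbkb and Ikbkg) and 8 lower with sgRNA2 in IFN-gamma, so that 10 of 15 passed with each guide, near the 64.9% and 61.8% of all genes. DESeq2 called 3 of them higher with sgRNA1. In vehicle 6 were higher and 6 lower with sgRNA1, and 7 higher and 6 lower with sgRNA2, where 52.5% and 73.3% of all genes passed. With upper quartile scaling these counts became 7 higher and 4 lower with sgRNA1 and 9 higher and 4 lower with sgRNA2. Among IFN-gamma-treated libraries Nfkbia, the gene of the inhibitor IκBα, was lower than in control by 0.53 ± 0.05 with sgRNA1 (edgeR adjusted p = 1.23e-08) and 0.74 ± 0.05 with sgRNA2 (adjusted p = 2.40e-10). Rela, the gene of the p65 subunit, was higher than in control with sgRNA1 in IFN-gamma (0.42 ± 0.05) and lower with sgRNA1 in vehicle (-0.61 ± 0.06). The part of these NF-kB genes in the levels of the 6 chemokine genes was not tested. Of the C/EBP genes 5 of 7 were tested. With sgRNA1 and with sgRNA2 in vehicle 2 were higher and 2 lower, beside 52.5% and 73.3% of all genes that passed in either direction. In IFN-gamma 2 were higher with each guide and 1 (sgRNA1) or 2 (sgRNA2) lower, beside 64.9% and 61.8% of all genes. In IFN-gamma Cebpb was higher with sgRNA1 (0.35 ± 0.07), and Cebpd was lower with sgRNA2 (-0.78 ± 0.09).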

How the data were processed

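For 12 libraries the authors deposited read counts, as whole numbers for each gene. Libraries were made with an Illumina TruSeq RNA kit, per the labels' protocols, a kit that does not mark strand. STAR 2.4.0, HTSeq, DESeq2 1.10 and the mm10 build are named in the submitters' processing notes, without roles. How the counting was annotated, stranded and filtered is not given in the sources used here. Groups were read from the titles and the treatment characteristic in the labels, which agree. A separate protocol field gives the IFN-gamma treatment for every sample, vehicle included, and was not used to set groups. From the counts, edgeR 4.0.16 (R 4.3.3) kept 13601 genes with filterByExpr (minimum count 10, minimum total 15), scaled libraries by TMM (factors 0.963 to 1.09), and fitted 1 term per group to all 12 libraries with 6 residual degrees of freedom. The quasi-likelihood test was used, with Benjamini-Hochberg adjustment over all genes tested and a threshold of 0.05. The procedure was checked on simulated counts. A standard error is the log2 fold change divided by the square root of its F statistic, so it restates the test. The 2 libraries of a group are not said to come from separate cultures, so p-values measure the spread between these libraries, which may be technical. Within groups the chi-square per degree of freedom was 2.73 to 7.07, so no pair was taken for 1 library deposited again. Floors of 3 counts per library (0.139 to 0.166 CPM) and 95% exact counting intervals cover counting error only.

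The 6 genes, the gene lists and the tests were chosen with earlier results of these data known. Named genes are the 6 themselves, up to 4 called genes per list with a mean of at least 1 CPM and the largest change, the 3 genes most correlated with each of the 6 on the log2 CPM scale (prior count 2), Cebpd and neighbouring chemokine genes. Any other gene named from the lists (Ccl4, Ccl6, Ccl17, Ccrl2, Irf7, Ikbkb, Ikbkg, Csf1 and Zc3h12a where the rule did not take them) was chosen after its values were seen. Alternatives were upper quartile scaling, DESeq2 1.42.0, no filter, a replicate block, merged guides, only the compared libraries, and leaving out each library. Gene positions are from GENCODE vM21 (GRCm38, the assembly of mm10), 1-based. The RefSeq promoter table matched 3 of the 6 genes. Some items that these rules take are not reported here.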

Additional observations from a re-analysis of the deposited data

Results flagged for a closer look

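The difference between lines in the response to IFN-gamma was tested as an interaction term with edgeR over 13601 genes. For the chemokine genes 11 values passed, given here on the log2 scale. Between sgRNA1 and control these were -1.82 for Cx3cl1, -1.23 for Ccl5 and 1.16 for Ccl20. Between sgRNA2 and control they were -2.16 for Cx3cl1, -1.81 for Ccl5, 1.81 for Ccl20 and 1.44 for Ccl2. Between sgRNA2 and sgRNA1 they were 1.48 for Ccl2, 2.06 for Ccl7, -0.58 for Ccl5 and -0.35 for Cx3cl1. Cx3cl1 and Ccl5 thus responded less, and Ccl20 more, in each guide line than in control, while Ccl2 set sgRNA2 apart from the lines of sgRNA1 and control. The level of Cebpd mRNA itself also responded less in the guide lines, by -0.90 with sgRNA1 and -1.02 with sgRNA2, and its part in these values was not tested. Of all genes, 55.1% passed between sgRNA1 and control, 65.1% between sgRNA2 and control and 42.8% between sgRNA2 and sgRNA1. A difference in response was thus common among all genes and not particular to the chemokine genes.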

How the results depend on the processing

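Of 86 member comparisons, 84 kept direction and call with upper quartile scaling, 86 without the filter on low counts, 84 with the compared libraries only, and 83 of 84 with DESeq2. No paired analysis is implied by the design: correlations of same-numbered libraries were -0.244 to 0.116, with 2 of 15 above 0.1, so the numbers do not pair them. A replicate block changed none of 86 calls and counted 6 members with each guide in IFN-gamma (Ccl2 2.84 and 2.47). Of all genes it called 8804 (sgRNA1) and 8368 (sgRNA2) there, against 8825 (64.9%) and 8402 (61.8%) without the block. With upper quartile scaling the median over all genes moved by 0.104 (sgRNA1), 0.166 (sgRNA2) and 0.135 (mean of guides) in vehicle, by 0.105 (sgRNA2) in IFN-gamma and by -0.121 (IFN-gamma in sgRNA2), and the share of calls that were higher to 62.8% against 48.8% (sgRNA1, vehicle), 62.5% against 52.3% (sgRNA2, vehicle), 62.1% against 50.2% (mean, vehicle) and 38.1% against 51.1% (IFN-gamma in sgRNA2). Under it Ccl5 by the mean of guides in IFN-gamma was 0.047 and Cx3cl1 with sgRNA1 in vehicle 0.18. With DESeq2, Ccl20 with sgRNA2 in IFN-gamma was -0.51. With the compared libraries only, the Ccl2 interaction with sgRNA1 was 0.026 and Ccl9 with sgRNA2 in IFN-gamma had an adjusted p of 0.0640. Merged guides gave interactions of 1.33 (Ccl20), 0.44 (Ccl2) and -1.61 (Ccl5), vehicle differences of -1.08 (Ccl20) and 0.35 (Cx3cl1), 1 member called in the interaction against 4, and 2663 genes called in the interaction (8688 by the mean of guides), 4361 in IFN-gamma (8959) and 4387 in vehicle (9207), as libraries of both guides then share 1 group. Leaving out each of the 12 libraries kept 998 of 1032 calls. The log2 ranges of values that changed were -0.004065 to 0.35 (Ccl20, IFN-gamma in control), -0.047 to 0.31 (Ccl20, mean of guides, IFN-gamma), -0.47 to -0.36 (Ccl20, sgRNA1, vehicle), -0.67 to -0.31 (Ccl20, sgRNA2, IFN-gamma), -0.064 to 0.020 (Ccl2 interaction, sgRNA1) and -0.062 to 0.001467 (Ccl5, mean of guides, IFN-gamma). Between sgRNA2 and sgRNA1 they were 1.22 to 4.01 (Ccl7 response), -0.57 to -0.50 (Ccl7, IFN-gamma), -1.24 to 0.11 (Ccl9 response), -1.18 to 0.19 (Ccl9, vehicle) and 0.076 to 0.25 (Cx3cl1, IFN-gamma), with 3 to 5 members called in IFN-gamma. Adjusted p ranges were 0.160 to 0.776 (Ccl7 interaction, mean of guides), 0.156 to 0.894 (same, sgRNA2), 7.7e-05 to 0.105 (Ccl7, mean of guides, vehicle), 0.00834 to 0.985 (Ccl7, sgRNA2, vehicle), 0.00908 to 0.0584 (Ccl9, mean of guides, IFN-gamma) and 0.0354 to 0.125 (Ccl9, sgRNA2, IFN-gamma). Apart from the compared libraries and merged guides, where fewer samples or 1 shared group enter the fit, the cause was not tested. Depth limits Ccl9 throughout and Ccl7 in vehicle. The length used moves each share of the per-length sum.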

Other observations

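Other attractants of monocytes were measured beside the 6 chemokine genes, 15 of a list of 19 in the table and 14 tested. In IFN-gamma 6 were higher and 5 lower than in control with sgRNA1, and 8 higher and 6 lower with sgRNA2, where 64.9% and 61.8% of all genes passed in either direction. DESeq2 gave 5 higher and 6 lower with sgRNA1. Saa3, an acute phase protein, rose by 3.61 ± 0.23 on the log2 scale with sgRNA1 (edgeR adjusted p = 1.62e-10) and 2.86 ± 0.23 with sgRNA2 (adjusted p = 6.89e-09). Csf2, the gene of GM-CSF, rose by 3.33 ± 0.18 with sgRNA1 (adjusted p = 1.63e-11) and 1.86 ± 0.19 with sgRNA2 (adjusted p = 1.19e-07). Csf1, the main growth factor of macrophages, was higher with sgRNA1 (0.30) and lower with sgRNA2 (-0.51). In vehicle 8 were higher with each guide, and 3 were lower with sgRNA1 and 2 with sgRNA2, beside 52.5% (sgRNA1) and 73.3% (sgRNA2) of all genes. The largest rises were those of Saa3 with sgRNA1 (3.51 ± 0.43, where control had 7 and 1 counts) and Vegfa with sgRNA2 (3.30 ± 0.06).

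Of 7 regulators of chemokine mRNA decay, 1 was higher and 5 lower with sgRNA1 in IFN-gamma, and 7 were lower with sgRNA2, beside 64.9% and 61.8% of all genes that passed in either direction. With upper quartile scaling 2 were higher and 4 lower with sgRNA1, and 6 were lower with sgRNA2. Zfp36, the gene of tristetraprolin, which binds AU-rich elements and speeds mRNA decay, fell there by 1.16 ± 0.07 with sgRNA1 (adjusted p = 1.15e-10) and 0.99 ± 0.07 with sgRNA2 (adjusted p = 1.05e-09). Its level in IFN-gamma was 32.7 and 33.3 CPM with sgRNA1 and 38.3 and 36.2 CPM with sgRNA2, against 69.8 and 77.9 CPM in control. The gene higher with sgRNA1 was Zc3h12a, the gene of the RNase Regnase-1 (0.46 ± 0.05), which was lower with sgRNA2 (-0.45). The part of these decay regulators in the levels of the 6 chemokine genes was not tested.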
